A study of Homo sapiens with 4 samples.

Results

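Aminoacyl-tRNA synthetases are the enzymes that join each amino acid to its tRNA, and human cells keep 2 largely separate sets of them, 1 for the cytosol and 1 for mitochondria. The genes described here are the synthetases on a list of 36 symbols, 20 cytosolic and 16 mitochondrial, taken by gene name among protein-coding genes. The table held 34 of them, all 20 cytosolic genes and 14 mitochondrial ones, out of 25122 genes in all; MARS2 and SARS2 were not analysed here. The table uses older symbols (AARS, GARS and so on for what are now AARS1 and GARS1), and these are kept. All 34 had a mean of at least 10 normalized counts and entered the test.

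The data are 4 mRNA-seq libraries of Jurkat, a widely used cell line from a T-cell acute lymphoblastic leukaemia: 2 carrying a control hairpin (shcontrol) and 2 a hairpin (shBDH1) that lowers BDH1 by RNA interference. BDH1 encodes the mitochondrial 3-hydroxybutyrate dehydrogenase of ketone body metabolism. All 4 carry the genotype label WT, and no other agent is named for them. The study's description asks whether MYC lies downstream of BDH1 and also names MYC-restored cells, which were not analysed here. No source used here gives the hairpin's sequence, the days of knockdown, or whether a group was 1 culture or 1 clone. The p-values therefore rest on the spread within pairs of libraries that may be technical repeats. BDH1 mRNA stood at 1725 and 1911 normalized counts in shcontrol and 1221 and 1412 in shBDH1, a change of -27.6% in the mean (log2 fold change -0.47, SE 0.08, limma adjusted p = 1.5e-05).

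The 4 libraries held 28681511 to 29453383 reads in genes, and the values are read counts that the authors divided by 1 size factor per library. T cell markers used to check the label (CD3D, CD3E, CD3G, CD247, LCK, CD28, BCL11B, TRBC1 and TRBC2) were all present, and their summed normalized counts were 53204 and 53266 in shcontrol against 59753 and 60119 in shBDH1. Markers of other lineages had far lower sums, each over fewer genes. B cell markers summed to 219.7 in each shcontrol library and 686 and 666 in shBDH1, with 3 of 5 in the table. NK markers summed to 82.8 to 89.3 and 190 to 241 (4 of 4 in the table), stromal and epithelial markers to 718 to 732 and 922 to 1031 (3 of 6), myeloid markers to 56.5 to 57.2 and 67.4 to 72.7 (4 of 5), and erythroid and megakaryocyte markers to 65.7 to 82.8 and 61.9 to 68.4 (1 of 5). Of these, LYZ was at 0 in 3 libraries and CD14 was at most 6.1. Others were higher: CD79A stood at 125 and 144 in shcontrol and 600 and 601 in shBDH1. COL1A1 stood at 388.1 and 405.7 against 546.5 and 534.0, and KRT18 at 218.7 and 198.3 against 159.2 and 159.9. CD28 of the T cell list was below COL1A1 in every library, at 76.0 and 88.9 against 231.0 and 278.6. The part of these markers in the results was not tested. In bulk RNA, fewer cells of a type and less RNA per cell cannot be told apart.

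Each synthetase first activates its amino acid with ATP and then transfers it to the matching tRNA, so the set is needed by every cell that makes protein. The enzymes fall into class I and class II by the fold of their catalytic domain. Several cytosolic enzymes sit together in the multisynthetase complex, held by the scaffold proteins AIMP1, AIMP2 and EEF1E1. Lack of an amino acid leaves tRNAs uncharged, which activates the kinase GCN2 (gene EIF2AK4) and raises translation of the transcription factor ATF4; many cytosolic synthetase genes are known ATF4 targets, whereas most mitochondrial ones are not known as such. ATF4 binds, with a C/EBP partner, an element known as CARE. Mitochondrial synthetases are encoded in the nucleus, imported, and serve only the translation of the few proteins that mitochondrial DNA encodes. GARS and KARS are exceptions, since each gene makes both the cytosolic and the mitochondrial enzyme.

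Because most cytosolic genes moved together, the promoter windows of the synthetase genes from RefSeq (GRCh38.p14, 250 bases before to 50 after each annotated start) were searched on both strands for the CARE core TGATGNAA and for the E-box CACGTG, the core letters that MYC binds with MAX. Windows were found for 28 of the 34 genes; none was used for DARS, LARS, YARS, VARS, AARS2 and VARS2. The CARE core stood in 7 of 16 cytosolic genes and in 1 of 12 mitochondrial genes, YARS2. Among all genes with such a window, 4.46% held it (1217 of 27305), or 3.62% of 35116 windows. The matches are printed below in the orientation in which the motif reads TGATGNAA, with the motif in capitals, to show where the matches lie and the letters around them; the search itself fixed all letters of the core but the N.

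CARS, chr11:3057407-3057436, plus strand: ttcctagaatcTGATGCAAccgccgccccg
GARS, chr7:30594834-30594863, minus strand: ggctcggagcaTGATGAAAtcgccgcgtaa
MARS, chr12:57488053-57488082, minus strand: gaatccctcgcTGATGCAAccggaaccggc
IARS, chr9:92293692-92293721, plus strand: gcgcacggaggTGATGCAAcgcgctgaaaa
NARS, chr18:57621804-57621833, minus strand: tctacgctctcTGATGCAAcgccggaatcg
TARS, chr5:33440956-33440985, minus strand: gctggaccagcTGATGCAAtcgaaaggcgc
AARS, chr16:70289675-70289704, plus strand: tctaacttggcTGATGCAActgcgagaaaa
YARS2, chr12:32756076-32756105, minus strand: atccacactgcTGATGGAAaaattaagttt

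The open position of the core was C in 6 of the cytosolic matches, A in GARS and G in YARS2. In gene direction, the first base of the match lay 2 bases upstream of the annotated start in CARS, 4 in MARS, 13 in IARS and 33 in GARS, and 2 bases downstream in TARS and 14 in NARS. It lay farther off, at 187 bases upstream, in AARS and at 197 in YARS2. All 7 cytosolic carriers are on the list of known ATF4 targets, of which 10 had a window; none of the 6 other cytosolic genes with a window held the core. The E-box stood in IARS, CARS2 and EARS2, that is 1 of 16 cytosolic and 2 of 12 mitochondrial genes, against 8.77% of all genes with a window. A match is a description of letters, not a measured binding site.

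Most cytosolic synthetase mRNAs fell in shBDH1. Of 20, 16 fell and 1 rose (limma, adjusted p under 0.05 over all 19301 genes tested), where 20.8% of all genes tested fell and 20.3% rose. Among genes with a mean of at least 1000 normalized counts, as all 20 had, 34.7% fell and 26.2% rose. Both shBDH1 libraries lay below both shcontrol ones for 16 of the 20 and above them for 2, where this held for 34.9% and 34.1% of all genes tested, and for 46.1% and 35.2% of those with a mean of at least 1000. The median log2 fold change was -0.39 for the cytosolic genes and -0.01 for all genes tested. Their summed level per kilobase of exon was 27998 and 28122 normalized counts in shcontrol and 21391 and 21806 in shBDH1, a change of -23.0%, and the groups did not overlap. In the same libraries the 20 genes took 0.474% and 0.478% of reads in genes in shcontrol and 0.366% and 0.372% in shBDH1. A 2-against-2 exact permutation test (two-sided) cannot give less than 0.333, which is what it gave for each sum.

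**Figure D1:**
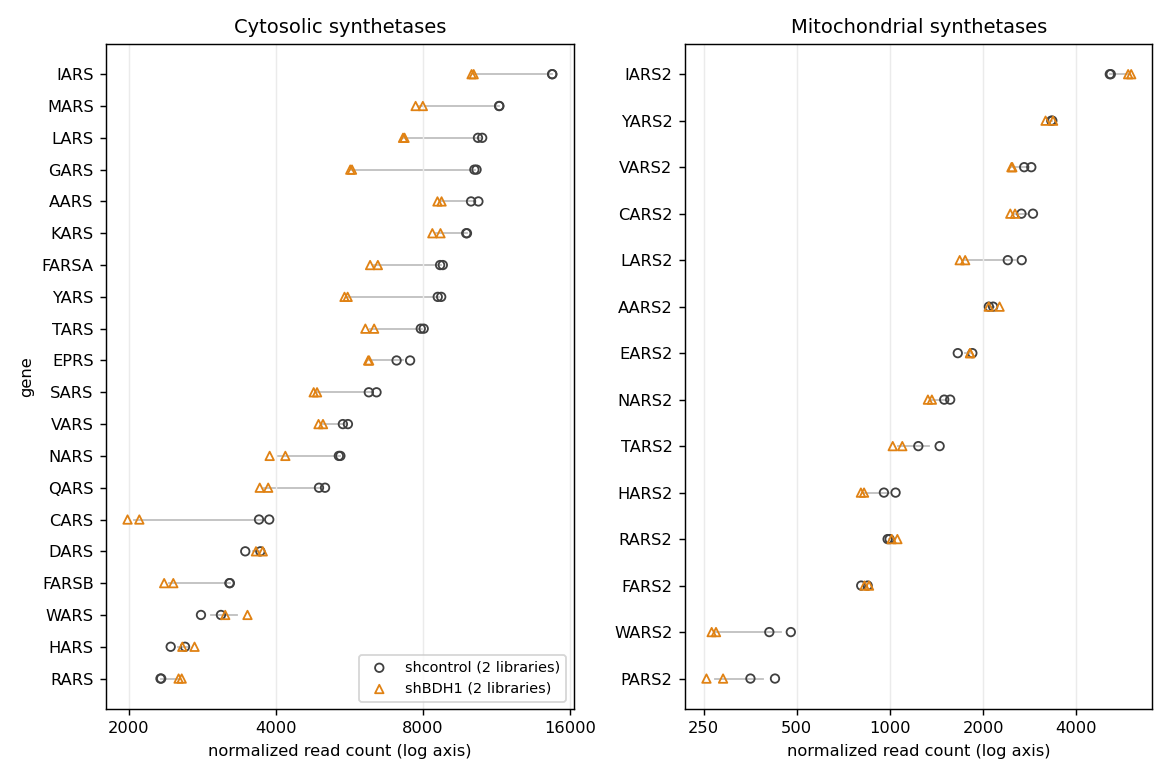
Normalized read count of each synthetase mRNA (log axis) in each of the 4 libraries, circles for shcontrol and triangles for shBDH1, with a grey line between the group means and genes ordered by their shcontrol mean. In 16 of 20 cytosolic rows both triangles lie left of both circles, as they do in 8 of 14 mitochondrial rows. The same held for 34.9% of all genes tested and for 46.1% of those with a mean of at least 1000.

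CARS and GARS fell the most among the cytosolic genes. CARS, which charges cysteine (chr11:3000922-3057613, GENCODE 29 on GRCh38), had 3695 and 3878 normalized counts in shcontrol and 1989 and 2103 in shBDH1, which is -0.89 as a log2 fold change (SE 0.06, limma adjusted p = 4.0e-13). GARS, which charges glycine in both compartments (chr7:30594681-30634033), had 10297 and 10192 against 5680 and 5726, or -0.84 on the same scale (SE 0.04, limma adjusted p = 6.2e-16). For both genes the shBDH1 libraries lay far below the shcontrol ones, with mean changes of -46.0% and -44.3%; of all 4020 genes that fell, 416 fell by more than CARS and 459 by more than GARS.

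The next in size were YARS, MARS, IARS and LARS. YARS, for tyrosine, went from 8576 and 8717 normalized counts in shcontrol to 5610 and 5528 in shBDH1 (log2 fold change -0.63, SE 0.04, limma adjusted p = 6.1e-13). MARS, for methionine, went from 11451 and 11464 to 7727 and 7995 (log2 fold change -0.54, SE 0.04, limma adjusted p = 3.2e-12). IARS, for isoleucine, had the highest counts of all the synthetases and went from 14713 and 14701 to 10059 and 10158 (log2 fold change -0.54, SE 0.04, limma adjusted p = 6.4e-13). LARS, which charges leucine and also acts as a leucine sensor for mTORC1, went from 10365 and 10574 to 7283 and 7334 (log2 fold change -0.52, SE 0.04, limma adjusted p = 1.1e-11). In each of these 4 genes the libraries of a group lay close together and the groups were well apart.

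A middle group changed by -27.2% to -21.9% in the mean. It held the 2 chains of the phenylalanine enzyme, FARSA at -0.46 and FARSB at -0.41 on the log2 scale, and the enzymes for asparagine (NARS, -0.42), glutamine (QARS, -0.39), serine (SARS, -0.39) and threonine (TARS, -0.36). FARSA and FARSB make up 1 enzyme with equal numbers of each chain, and their mRNAs fell by like amounts: the ratio of FARSA to FARSB per kilobase was 3.73 and 3.78 in shcontrol and 3.65 and 3.63 in shBDH1. Smaller falls were found for AARS (-0.24), the fused glutamate and proline enzyme EPRS (-0.24), KARS for lysine (-0.20) and VARS for valine (-0.17). Of these, VARS missed the threshold without shcontrol replicate 1 (limma adjusted p = 0.071; 0.00098 to 0.071 over its alternatives).

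Cytosolic enzymes for tryptophan, arginine, histidine and aspartate were not among those that fell. WARS, the tryptophan enzyme and also an interferon-induced gene (chr14:100333788-100376805), had 2811 and 3089 normalized counts in shcontrol and 3500 and 3152 in shBDH1, a rise of 0.17 on the log2 scale (SE 0.06, limma adjusted p = 0.0225). Its groups lay apart only narrowly, and the call was lost without shcontrol replicate 1 (0.10, limma adjusted p = 0.3), without shBDH1 replicate 1 (0.10, limma adjusted p = 0.29) and with no filter on low values (limma adjusted p = 0.094). RARS, for arginine, had 2331 and 2323 against 2567 and 2530, a log2 fold change of 0.13 (95% interval 0.01 to 0.25, limma adjusted p = 0.0762); its groups did not overlap, and it passed the test with library totals, with upper-quartile scaling and with edgeR on upper-quartile factors (adjusted p from 0.017 to 0.035). HARS, for histidine, had 2438 and 2608 against 2575 and 2727 (log2 fold change 0.07, 95% interval -0.05 to 0.19, limma adjusted p = 0.366), and DARS, for aspartate, 3463 and 3719 against 3643 and 3761 (log2 fold change 0.04, 95% interval -0.06 to 0.15, limma adjusted p = 0.542). The groups of HARS and DARS overlapped, and their intervals do not reach the falls seen in the 16 other genes.

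**Figure D2:**
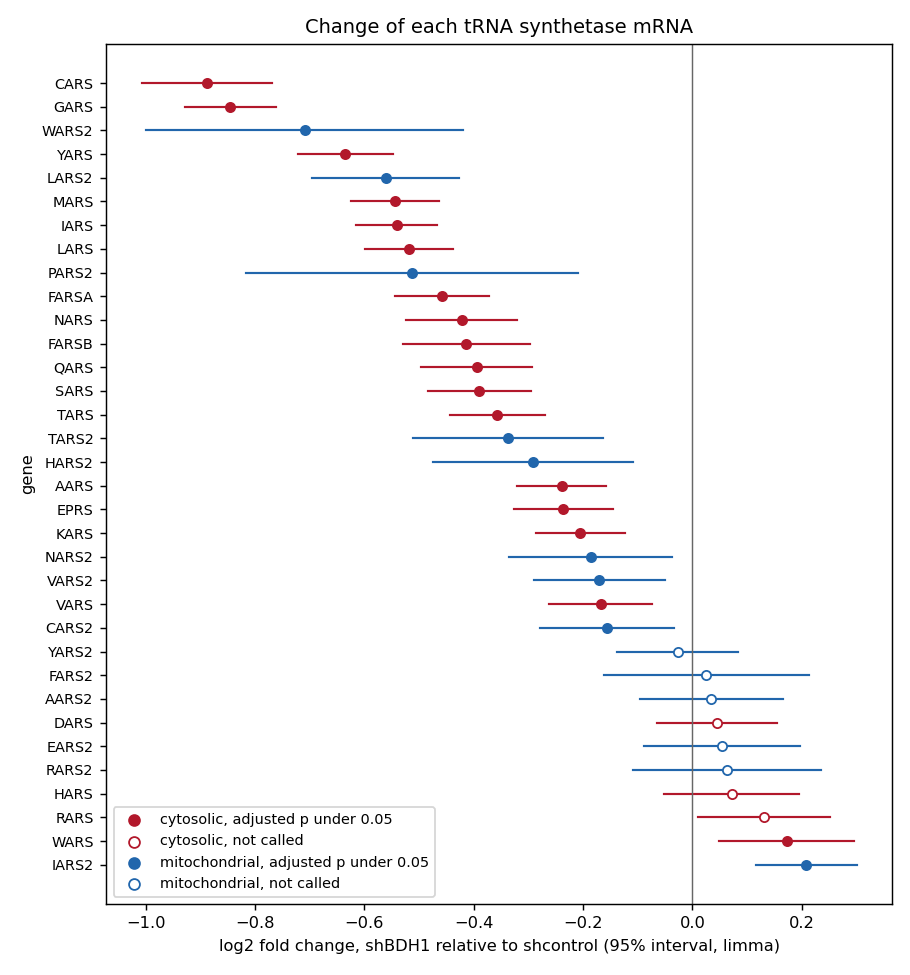
Log2 fold change of each synthetase mRNA, shBDH1 relative to shcontrol, with its 95% interval from limma, ordered from the lowest to the highest. Red marks cytosolic and blue mitochondrial genes, and filled points passed the test. The values run from -0.89 for CARS to 0.21 for IARS2.

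The members were also grouped by features that the list did not use. Of the 13 cytosolic genes known as ATF4 targets, 12 fell and WARS rose, with a median log2 fold change of -0.42. Of the 7 others, 4 fell, with a median of -0.20, and none passed as higher in the main limma fit. RARS was higher there at an unadjusted limma p of 0.0341. It passed by limma with library totals or upper-quartile scaling (limma adjusted p = 0.035 and 0.018), and by edgeR on upper-quartile factors. It did not pass by edgeR on TMM factors, limma-voom or DESeq2. Among the cytosolic genes with a promoter window, the 7 that hold the CARE core all fell (median log2 fold change -0.54), and of the 9 without it 6 fell and WARS rose (median -0.24). Of the 8 enzymes of the multisynthetase complex, 6 fell (median -0.32), and of the 12 outside it 10 fell (median -0.40). Of 9 class I cytosolic enzymes 7 fell (median -0.52), and of 10 class II enzymes 8 fell (median -0.37); EPRS holds a domain of each class. Over all genes tested, 20.8% fell and 20.3% rose. The shares were 34.7% and 26.2% among genes with a mean of at least 1000, as all the cytosolic genes had. These subgroup counts are over few genes, and no difference between subgroups was tested.

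Of 14 mitochondrial synthetases, 8 fell and 1 rose by the same test, against 20.8% and 20.3% of all genes tested and 34.7% and 26.2% of those with a mean of at least 1000; 5 did not pass it, and the median log2 fold change was -0.16. The count of falls was 5 with DESeq2 or upper-quartile scaling, where 3188 and 3340 genes fell in all, against 4020 in the main fit. As a share of the 14, that count is near the 34.7% of genes with a mean of at least 1000. That share comes from the main fit and was not taken in those settings. Not all of the 14 genes reach a mean of 1000, and the lowest stood at 330.9 normalized counts. With any 1 library left out, the median log2 fold change ran from -0.18 to -0.11. The difference between the cytosolic and mitochondrial counts was not tested. Their mRNAs were less abundant, with a median over genes of 1610 normalized counts against 6156 for the cytosolic genes, and their standard errors were larger, with a median of 0.07 against 0.04. The summed level per kilobase was 6502 and 6443 in shcontrol and 6246 and 6202 in shBDH1, a change of -3.84%, and the groups did not overlap.

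WARS2 and LARS2 fell in every setting tried. WARS2, for mitochondrial tryptophan (chr1:119031216-119140671), had 408 and 478 normalized counts in shcontrol and 274 and 265 in shBDH1 (log2 fold change -0.71, SE 0.14, limma adjusted p = 1.6e-04). LARS2, for mitochondrial leucine (chr3:45388506-45549421), had 2663 and 2402 against 1750 and 1679 (log2 fold change -0.56, SE 0.07, limma adjusted p = 5.5e-08). In both the shBDH1 libraries lay well below the shcontrol ones.

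PARS2, for proline, had 354 and 425 normalized counts in shcontrol and 289 and 255 in shBDH1 (log2 fold change -0.51, SE 0.15, limma adjusted p = 0.0062). It missed the threshold without shcontrol replicate 2 (limma adjusted p = 0.12) or shBDH1 replicate 2 (limma adjusted p = 0.072; 0.0022 to 0.12 over its alternatives). TARS2, for threonine, had 1447 and 1235 against 1096 and 1021 (log2 fold change -0.34, SE 0.08, limma adjusted p = 0.0019), and missed it without shcontrol replicate 1 (log2 fold change -0.22, limma adjusted p = 0.094; 0.00012 to 0.094 over its alternatives). In both genes the gap between the groups was smaller than the gap between the shcontrol libraries. HARS2, for histidine, had 956 and 1043 against 825 and 806 (log2 fold change -0.29), and likewise missed it without shcontrol replicate 2 or shBDH1 replicate 2, with a limma adjusted p of 0.13 and 0.052 (0.0052 to 0.13 over its alternatives).

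NARS2 (-0.19), VARS2 (-0.17) and CARS2 (-0.16), for asparagine, valine and cysteine, passed the test narrowly, with limma adjusted p of 0.0415, 0.0196 and 0.0378. NARS2 had 1497 and 1565 normalized counts in shcontrol and 1326 and 1366 in shBDH1, VARS2 2861 and 2714 against 2468 and 2484, and CARS2 2897 and 2658 against 2535 and 2447. The groups of all 3 did not overlap. Of the 16 alternatives, NARS2 lost the call in 10, CARS2 in 8 and VARS2 in 5. CARS2 without shcontrol replicate 1 stood at -0.09, and VARS2 without that library at -0.13.

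IARS2, for mitochondrial isoleucine, rose. The gene (chr1:220094102-220148041) had 5129 and 5166 normalized counts in shcontrol and 6014 and 5879 in shBDH1 (log2 fold change 0.21, SE 0.05, limma adjusted p = 4.2e-04), and passed the test in every alternative. Its groups lay apart, and it was the highest of the mitochondrial synthetases by count. RARS2, for arginine, had 983 and 997 against 1057 and 1013 (log2 fold change 0.06, limma adjusted p = 0.585), EARS2, for glutamate, 1845 and 1656 against 1815 and 1813 (0.05, limma adjusted p = 0.574), and AARS2, for alanine, 2086 and 2153 against 2260 and 2085 (0.03, limma adjusted p = 0.707). These, FARS2 (0.03) and YARS2 (-0.03) were not called, and their 95% intervals reached from -0.16 at the lowest (FARS2) to 0.23 at the highest (RARS2). Only RARS2 among these 5 had groups that did not overlap.

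**Figure D3:**
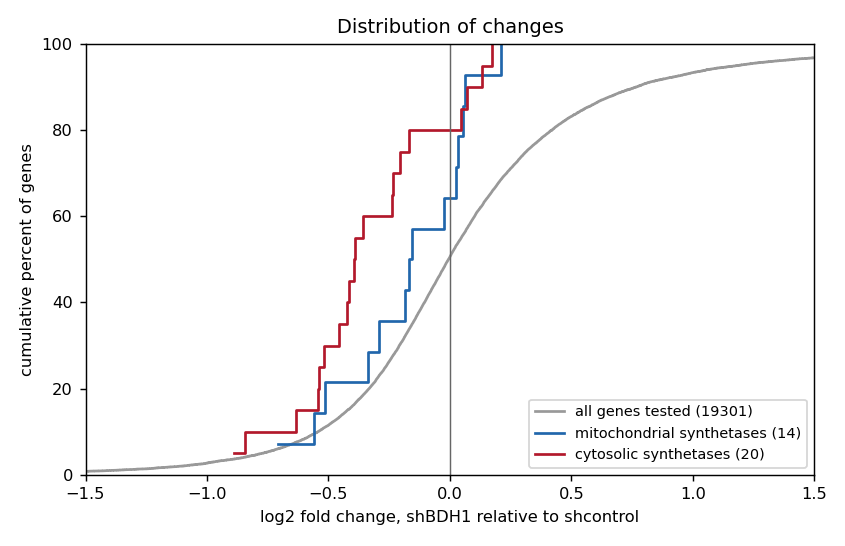
Cumulative percent of genes by log2 fold change, shBDH1 relative to shcontrol, for the 20 cytosolic synthetases (red), the 14 mitochondrial ones (blue) and all 19301 genes tested (grey). The medians are -0.39, -0.16 and -0.01.

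The contrast between the compartments was also taken amino acid by amino acid, as the ratio of the cytosolic to the mitochondrial mRNA per kilobase within each library. It could be formed for 15 pairs, in which EPRS and FARS2 stand in 2 pairs each. The ratio was lower in both shBDH1 libraries than in both shcontrol ones for 8 pairs, higher for 4 and overlapping for 3. No share over ratios of other genes was taken. For single genes, shBDH1 lay lower without overlap for 34.9% of all genes tested and higher for 34.1%. Among those with a mean of at least 1000 the shares were 46.1% and 35.2%. Over the summed levels, the ratio was 4.31 and 4.37 in shcontrol and 3.43 and 3.52 in shBDH1. None of these can pass a 2-against-2 exact permutation test, whose smallest two-sided p is 0.333.

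The isoleucine pair moved in opposite directions, with IARS lower and IARS2 higher. Its ratio was 1.61 and 1.60 in shcontrol and 0.941 and 0.972 in shBDH1, so the mitochondrial mRNA passed the cytosolic one per kilobase. The same happened for cysteine, where CARS to CARS2 went from 1.33 and 1.52 to 0.818 and 0.896. For tyrosine the mitochondrial mRNA was the higher one per kilobase in all 4 libraries. Its ratio of YARS to YARS2 went from 0.672 and 0.688 to 0.462 and 0.431. The phenylalanine, alanine, glutamate and asparagine pairs shifted the same way, by -0.48 (FARSA) to -0.24 (NARS) on the log2 scale. Which mRNA of a pair is higher depends on the length used, that of all annotated exons (8212 bases for YARS, 2152 for YARS2). By counts, YARS stayed above YARS2 in every library, with 5610 and 5528 against 3181 and 3364 in shBDH1. IARS likewise stayed above IARS2, with 10059 and 10158 against 6014 and 5879 in shBDH1. CARS fell below CARS2 by counts too, with 1989 and 2103 against 2535 and 2447 in shBDH1.

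The tryptophan pair shifted the other way by the widest margin. WARS to WARS2 was 4.17 and 3.91 in shcontrol, against 7.72 and 7.18 in shBDH1. For histidine the ratio of HARS to HARS2 went from 1.21 and 1.19 to 1.49 and 1.61, and EPRS to PARS2 went from 8.59 and 7.63 to 9.25 and 10.4. The leucine, threonine and valine ratios overlapped between the groups, and both members stood at like values: LARS at -0.52 and LARS2 at -0.56, TARS at -0.36 and TARS2 at -0.34, and VARS and VARS2 at -0.17 each on the log2 scale. The arginine ratio moved by 0.07 on the log2 scale.

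**Figure D4:**
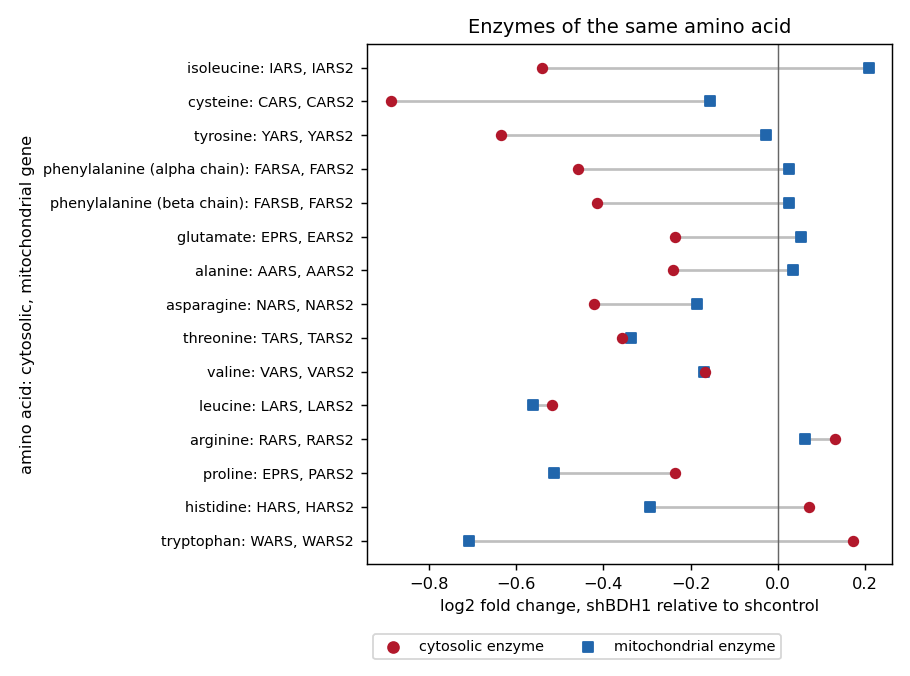
Log2 fold change of the cytosolic (red circle) and mitochondrial (blue square) mRNA for each amino acid with both enzymes, shBDH1 relative to shcontrol, joined by a grey line and ordered by the gap. The gap is -0.75 for isoleucine at the top, where the cytosolic mRNA is lower, and 0.88 for tryptophan at the bottom, where the mitochondrial one is lower.

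Per kilobase of all annotated exons, the cytosolic levels in shcontrol ran from 321 normalized counts for HARS to 3584 for FARSA, with a median of 1305, and in shBDH1 from 204 for CARS to 2609 for FARSA, with a median of 954. The mitochondrial levels ran from 115 for WARS2 to 1548 for YARS2, with a median of 329, and in shBDH1 from 70.1 for WARS2 to 1521 for YARS2, with a median of 276. CARS thus went from the second lowest cytosolic level to the lowest.

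Some synthetase genes share exon bases with another gene, mostly on the other strand, and no strand setting is known, so such reads may be counted for either. Of 9 cytosolic genes with no such overlap in GENCODE 29, 8 fell and RARS did not pass the test. Of 6 mitochondrial ones, 2 fell and IARS2 rose, with a median log2 fold change of -0.0007. Their share of falls is near the 34.7% of genes with a mean of at least 1000. Not all of these 6 reach that mean, and the lowest stood at 330.9. CARS-AS1 shares 205 bases with CARS and went from 873 and 909 normalized counts to 580 and 556, while GARS-DT shares 99 bases with GARS and stood at 1346 and 1333 against 1174 and 1336. FARSA-AS1, which shares 25 bases with FARSA, went from 2270 and 2193 to 1695 and 1709. AL359915.2 shares 180 bases with WARS2, has more counts than WARS2 itself, and went from 1511 and 1500 to 1213 and 1158. AP003086.2, with 99 bases shared with NARS2, went from 530 and 607 to 388 and 363, and ING1, with 326 bases shared with CARS2, went the other way, from 995 and 968 to 1406 and 1456. HARS and HARS2 lie on opposite strands and share 437 bases. MARS shares 355 bases with DDIT3, the stress factor CHOP, which had 245 and 294 against 306 and 313 and was not called. VARS2 shares 1858 bases with GTF2H4 on its own strand, which was not analysed here. The part of these overlaps in the results was not tested.

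The mRNAs of proteins that work beside the synthetases were mostly lower as well. Of 12 charging partners in the table, of 15 listed, 10 fell and none rose in the main limma fit (median log2 fold change -0.23). The shares were 20.8% and 20.3% over all genes, and 34.7% and 26.2% over those with a mean of at least 1000. The scaffolds AIMP1 and AIMP2 fell by 0.22 and 0.19 on the log2 scale. GATB, GATC and QRSL1, the subunits of the amidotransferase that makes mitochondrial glutaminyl-tRNA in place of a glutamine synthetase, were at -0.61, -0.30 and -0.21, and MTFMT, which formylates the mitochondrial initiator tRNA, was at -0.38. In the selenocysteine branch, which builds its amino acid on a serine-charged tRNA, SEPHS1 was at -0.50, PSTK at -0.43 and SEPSECS at -0.23. The falls numbered 4 without shBDH1 replicate 1, 5 without shcontrol replicate 2 and 6 with upper-quartile scaling. SEPHS2 (0.14, limma adjusted p = 0.0576) was the 1 gene higher at an unadjusted p under 0.05, and rose by edgeR and limma-voom but not by DESeq2. It and the proofreading enzyme DTD1 (0.12) were not called.

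Of 21 tRNA maturation and export genes in the table, of 23 listed, 12 fell and none rose (median -0.19), against the 20.8% of all genes and 34.7% of those with a mean of at least 1000 that fell, and 0 were higher at an unadjusted limma p under 0.05 or by edgeR, limma-voom or DESeq2. XPOT, the export receptor for tRNA and a known ATF4 target, went from 10843 and 11291 normalized counts to 8273 and 8434 (log2 fold change -0.41, SE 0.04, limma adjusted p = 1.5e-09). Of the splicing endonuclease, TSEN15 fell by 0.71, TSEN34 by 0.66 and TSEN54 by 0.25 on the log2 scale. ELAC2, which trims the 3′ end, was at -0.50, the RNase P subunits POP7, RPP40 and RPP30 at -0.45, -0.41 and -0.32, HSD17B10 at -0.19, TRNT1, which adds the CCA end, at -0.17 and SSB at -0.14. Without shBDH1 replicate 1 the count of falls was 7.

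Of 8 elongation factors that bring charged tRNA to the ribosome or move it on, of 9 listed, 4 fell and none rose (median -0.13), where 34.7% of genes with a mean of at least 1000 fell; GFM1 was higher at an unadjusted limma p under 0.05 and rose by edgeR on upper-quartile factors but not by edgeR on TMM factors, limma-voom or DESeq2. TUFM, the mitochondrial carrier of charged tRNA, was at -0.50 and EEF1A1, its cytosolic counterpart, at -0.14. EEF2 was at -0.49 and EEF1D at -0.22. A last list, the sensing list, held genes for sensing uncharged tRNA and for the response downstream of that. Of its 7 genes in the table, of 9 listed, 5 fell and none rose (median -0.25), beside the same 20.8% and 34.7%. The kinase gene was not among the falls. ATF4 mRNA went from 16111 and 15135 normalized counts to 12717 and 12969 (log2 fold change -0.28, SE 0.04, limma adjusted p = 3.7e-07), and its target TRIB3 was at -0.95, PPP1R15A at -0.43, GCN1 at -0.25 and EIF2S1 at -0.14. The kinase gene EIF2AK4 had 3417 and 3429 against 3574 and 3897 (0.12, limma adjusted p = 0.0671), was higher at an unadjusted p under 0.05, and rose by edgeR and limma-voom but not by DESeq2. Without shcontrol replicate 2 or shBDH1 replicate 1 the falls in this list numbered 3. MYC mRNA was at -0.99 on the same scale.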

How the data were processed

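Per the values themselves, the authors deposited a signal made from reads per gene and scaled by a size factor: 100.0% of each library's values are whole multiples of 1 step, within 0.01 reads. Alignment with HISAT2 2.2.1 to hg38 and FastQC 0.11.9 are named per the submitters' processing notes; no source used here gives the counter, annotation or strand setting. Reads were recovered by dividing by the step.

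The main test was limma 3.58.1 (R 4.3.3) on log2(value + 1), with its variance prior following the mean, over the 19301 genes with a mean of at least 10, without a replicate block, with Benjamini-Hochberg adjustment and a threshold of 0.05. On that scale the changes of low genes are understated. Residual and prior degrees of freedom were 2 and 25.8. Alternatives used edgeR 4.0.16, DESeq2 1.42.0 and limma-voom on the recovered reads, other scalings, filters and pseudocounts, a replicate block, and each library left out. The fit was tested on simulated data. Exon lengths and positions are from GENCODE 29 (GRCh38, the build called hg38), which gave positions for 25010 of 25122 gene IDs; 21 symbols that had turned into dates were renamed from their IDs.

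The members and all lists were chosen with earlier results of these data known. Named are all members, BDH1, MYC and ATF4, and the genes of 4 pathway lists that passed the test; others were named after their values were seen, and 2 pathway genes are counted but not reported by name here. Libraries of a group differed by more than sampling noise (chi-square per degree of freedom 3.72 and 5.13, against 46.2 to 49.2 between groups). Sums, ratios and motif counts used Python 3.11.15 with pandas 2.3.3 and scipy 1.17.1.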

Additional observations from a re-analysis of the deposited data

How the results depend on the processing

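All 16 alternatives left the cytosolic falls at 16, except without shcontrol replicate 1 (15, VARS lost), and 15 of these genes kept their call in each. Cytosolic rises numbered 2 with library totals, upper-quartile scaling and edgeR on upper-quartile factors, 0 with no filter, and 0 to 1 with a library left out. The cytosolic median was -0.37 with library totals, -0.35 with upper-quartile scaling and with edgeR on those factors, and -0.39 to -0.37 with a library left out. Mitochondrial falls numbered 5 with DESeq2, upper-quartile scaling and edgeR on those factors, and 4 to 5 with a library left out; only WARS2 and LARS2 kept their fall in every alternative. The mitochondrial median was -0.14 with library totals, -0.12 with either upper-quartile setting, and -0.18 to -0.11 with a library left out. Without exon lengths the summed levels changed by -23.8% and -5.35%.

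Charging partners that fell numbered 6 with either upper-quartile setting and 4 to 8 with a library left out. Maturation genes numbered 7 to 13, and sensing genes 3 to 5, with a library left out. In several settings 1 pathway gene of a list rose: SEPHS2 with TMM scaling, edgeR (both factors), library totals, limma-voom, a mean of at least 50, upper-quartile scaling and the replicate block; GFM1 with edgeR on upper-quartile factors, library totals, upper-quartile scaling and the replicate block; EIF2AK4 with these, edgeR on TMM factors and limma-voom. With a library left out, rises in the partner, maturation, delivery and sensing lists numbered 0 to 1.

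Direction changed only for genes that were not called: YARS2 was at 0.017 with either upper-quartile setting, and with a library left out YARS2 ran from -0.067 to 0.014, DARS from -0.0069 to 0.096, FARS2 from -0.0094 to 0.060, EARS2 from -0.024 to 0.13 and AARS2 from -0.024 to 0.092. The cause was not tested in any of these.

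Same-numbered libraries did not deviate together (r = 0.035 over 13922 genes). That value does not show whether they were prepared as pairs. With the replicate number as a block the cytosolic falls stayed at 16 and the mitochondrial ones at 8. Scalings moved the median of all genes by at most 0.04 on the log2 scale. The standard errors were highest among the synthetases for PARS2 and WARS2, at 0.15 and 0.14, and these had the lowest counts; the part of depth in this was not tested.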
